A study of Mus musculus with 6 samples.

Results

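Genes that restrain messenger RNA were followed in splenic invariant natural killer T (iNKT) cells: Zfp36, Zfp36l1, Zfp36l2, Btg1, Btg2, Tob1, Zc3h12a, Rc3h1 and Rc3h2. They were taken by name from a table of 48709 genes, and all 9 were found. iNKT cells are T cells whose nearly fixed receptor sees lipids held by CD1d. The labels describe sorted natural killer T cells in the resting state from the spleen of Gpx4 cKO mice (3 samples) and of WT mice (3 samples). cKO stands for a conditional knockout of the gene for glutathione peroxidase 4, with the Cre driver, strain, age and deleted exons not given in the sources used here. The table holds 6 libraries, numbered 18 to 23, and 0 of the 6 could be matched to a label. No library was therefore given a genotype, no Gpx4 cKO against WT comparison was made, and each library is reported by its number.

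As background, the ZFP36 proteins bind AU-rich elements in the 3′ untranslated region of an mRNA and bring in the CCR4-NOT complex, which removes the poly(A) tail. BTG1, BTG2 and TOB1 bind the deadenylase subunits of the same complex, and in mouse naive T cells BTG1 and BTG2 are known to hold the cells in quiescence. Regnase-1, the product of Zc3h12a, cleaves stem-loops in the mRNAs of inflammatory proteins, and the Roquins, from Rc3h1 and Rc3h2, bind similar stem-loops and recruit CCR4-NOT.

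Several of the 9 genes carry in their own mRNA the kind of element that ZFP36 proteins bind. The nonamer TTATTTATT was found in the 3′ untranslated region of 5 of them (Zfp36, Zfp36l1, Zfp36l2, Rc3h1 and Rc3h2, 1 site each). It was present in 7.57% of 20981 3′ untranslated regions, taking the longest protein-coding transcript of each gene in GENCODE M21. The shorter core TATTTAT, which lies inside the nonamer, was present in 27.4% of them. Btg2 held 1 core and no nonamer, and Btg1, Tob1 and Zc3h12a held neither. Untranslated regions ran from 767 bases in Tob1 to 7181 bases in Rc3h1, against a median of 937 over all genes, and longer regions hold more matches by length alone. The sites are shown because they are what the family is known to read, with the nonamer, or in Btg2 the core, in capitals (GRCm38, transcript strand, T for U):
Zfp36 (chr7:28376951-28376979, minus strand): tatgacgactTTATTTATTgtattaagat
Zfp36l1 (chr12:80108167-80108195, minus strand): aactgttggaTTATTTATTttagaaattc
Zfp36l2 (chr17:84184914-84184942, minus strand): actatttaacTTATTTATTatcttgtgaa
Rc3h1 (chr1:160970043-160970071, plus strand): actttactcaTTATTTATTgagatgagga
Rc3h2 (chr2:37373287-37373315, minus strand): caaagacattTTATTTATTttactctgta
Btg2 (chr1:134077249-134077277, minus strand): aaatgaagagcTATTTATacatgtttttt

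Promoter windows from 250 bases before to 50 bases after the RefSeq start (GRCm38.p6) were matched for 8 of the 9 genes, all but Zfp36l2. Both strands were searched for TGACGTCA (the cyclic AMP element), TGANTCA (AP-1), GCGNGGGCG (EGR), GTAAACA (FOXO), the NF-kappaB motif and the CArG box of serum response factor. The windows shown are those of Zfp36 and Btg2, the genes of the 9 with their lowest exon CPM in libraries 18 and 19 and their highest in library 20, and Btg1, the steadiest of the 9 genes. Capitals mark every match. In the Zfp36 window these were a CArG box at position -58 and an EGR motif at -105. The Btg2 window held the cyclic AMP element at -166 and an EGR motif at -131, and the Btg1 window held a FOXO motif at -204. No matches overlapped, and the Zfp36 window lies inside the span that the table gives the gene.
Zfp36 promoter (chr7:28379179-28379478, minus strand): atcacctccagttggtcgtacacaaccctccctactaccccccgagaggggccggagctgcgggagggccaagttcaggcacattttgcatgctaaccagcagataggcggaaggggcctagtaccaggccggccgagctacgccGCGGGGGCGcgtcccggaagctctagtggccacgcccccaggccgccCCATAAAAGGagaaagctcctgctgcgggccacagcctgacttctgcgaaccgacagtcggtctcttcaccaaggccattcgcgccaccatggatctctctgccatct
Btg2 promoter (chr1:134079106-134079405, minus strand): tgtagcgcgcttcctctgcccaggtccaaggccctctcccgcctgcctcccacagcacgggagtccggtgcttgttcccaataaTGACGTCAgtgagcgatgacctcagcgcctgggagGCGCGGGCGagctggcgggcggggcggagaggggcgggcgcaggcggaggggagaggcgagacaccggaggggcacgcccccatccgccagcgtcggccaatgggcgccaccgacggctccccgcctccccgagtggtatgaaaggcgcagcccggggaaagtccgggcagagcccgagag
Btg1 promoter (chr10:96616751-96617050, plus strand): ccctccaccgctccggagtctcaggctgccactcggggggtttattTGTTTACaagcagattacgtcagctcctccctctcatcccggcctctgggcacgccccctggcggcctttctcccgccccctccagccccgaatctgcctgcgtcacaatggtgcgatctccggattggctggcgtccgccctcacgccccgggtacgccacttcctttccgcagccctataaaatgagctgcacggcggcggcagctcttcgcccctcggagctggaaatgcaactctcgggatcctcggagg
Of 32851 such windows, 1.63% held a CArG box, 1.79% the cyclic AMP element, 5.55% the EGR motif and 3.65% the FOXO motif. An AP-1 motif, present in 7.81% of windows, was found for Zfp36l1 and Rc3h1. No NF-kappaB match (1.63% of windows) was found in the 8 windows, and none of the 6 motifs in those of Zc3h12a, Rc3h2 and Tob1. A match is a description of the letters, not a binding site.

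Library depth differed widely, from 903524 exon reads (library 21) to 10122187 (library 19), so a count of 0 (a limit of 3 reads) allowed up to 3.62 CPM (counts scaled to 1000000 reads of effective library size) in library 21 and 0.282 CPM in library 19. Gpx4, the targeted gene, held 8.3, 0.937, 7.51, 3.66, 8.27 and 2.93 RPKM (the authors' reads per kilobase of exon, scaled to depth) in libraries 18 to 23. Zbtb16, Trac and the other 8 listed iNKT markers were read in all 6 libraries, with a summed CPM between 3974 (library 23) and 5411 (library 19). Libraries 18 and 19 held the lowest summed erythroid and B cell markers. All 6 erythroid markers were read, and their sum was 4.1 CPM in library 18 and 4.8 CPM in library 19, against 70 to 298 CPM in the others. All 11 B cell markers were read, with sums of 1019 CPM (library 18), 2007 CPM (library 19) and 3973 to 5301 CPM (the others), mostly Igkc. Ms4a1, a defining B cell gene, was at most 20.4 CPM and did not set these libraries apart, at 10.1, 5.74, 20.4, 7.24, 13.7 and 7.91 CPM in libraries 18 to 23. Of 8 myeloid markers in the table only S100a8 was at 0 throughout, and the sum was 72.3 to 108 CPM, mostly Cst3. NK cell markers (Klra8 at 0 throughout) summed to at most 28.1 CPM and CD8 T cell markers to at most 2.95 CPM. Intervals are at 95% and cover counting error only.

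Of the 9 genes, Zfp36l2 was the most abundant per length of exon in all 6 libraries and Zc3h12a the least. The median RPKM was 174 for Zfp36l2, 87.2 for Btg1, 39.7 for Btg2, 27.7 for Zfp36l1 and 20.9 for Zfp36. These levels lay above those of 99.3%, 98.7%, 97.2%, 95.3% and 93.3% of the 15314 genes with a median RPKM above 0. Rc3h1 (7.45), Tob1 (6.45), Rc3h2 (5.28) and Zc3h12a (3.1) followed at lower median RPKM. Zfp36l2, Btg1, Btg2 and Zfp36l1 kept this order in all 6 libraries, although the ranges of Btg2 (26 to 48.5 RPKM) and Zfp36l1 (22.3 to 31 RPKM) overlapped. Zfp36 came next except in library 19, where at 6.16 RPKM it stood below Rc3h1 (9.37) and Rc3h2 (7.22). The RPKM of Zfp36 rests on an exon length that equals the whole span of its gene, so it may be understated. The ranges of Rc3h1, Tob1 and Rc3h2 overlapped, and Tob1 stood above Rc3h1 only in library 20, at 6.74 against 6.6 RPKM. In bulk RNA, fewer cells of a type and less RNA per cell cannot be told apart.

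In exon reads, the spread of all 9 genes over the libraries was larger than counting error gives (chi-square test with 5 degrees of freedom, adjusted p under 0.05 after Benjamini-Hochberg adjustment). Of all 9042 genes tested, 71.6% passed the same threshold, and the test calls small differences in abundant genes, so the size of each difference says more than the call. The ratio of the highest to the lowest CPM had a median of 1.55 over the 9 genes and 1.58 over all genes tested. It reached 2 in Zfp36, Btg2, Zc3h12a and Tob1, and in 27.1% of all genes tested.

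**Figure D1:**
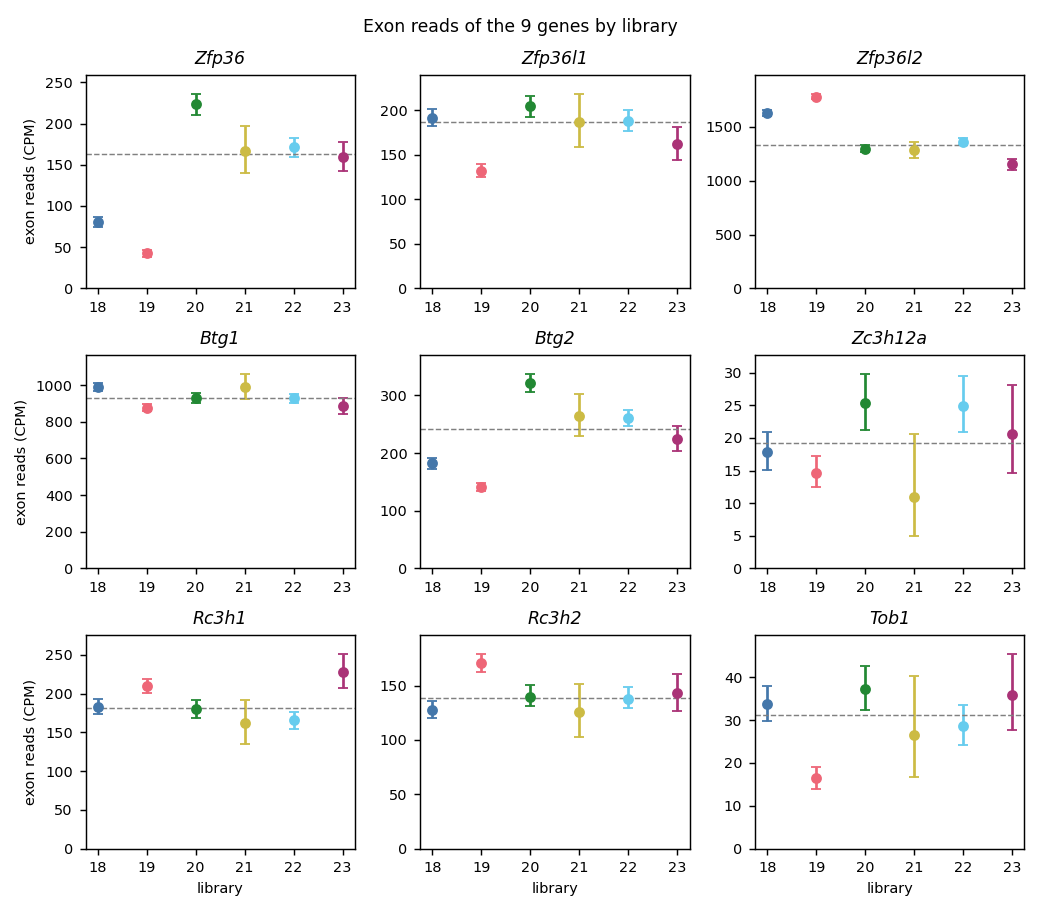
Exon reads of the 9 genes in CPM (y axis, from 0) by library (x axis); points are single libraries, bars are exact 95% Poisson intervals and the dashed line is the median. Zfp36 lay at 42.4 CPM in library 19 and at 224 CPM in library 20, while Btg1 stayed between 877 and 990 CPM.

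Zfp36 encodes tristetraprolin, the founding AU-rich element binding protein, whose gene is known to respond within minutes to stimulation. The gene lies on chromosome 7 at 28376784 to 28380253 of GRCm38 on the minus strand (ENSMUSG00000044786), and its CArG box and nonamer are printed above. It held 80.2, 42.4, 224, 167, 171 and 159 CPM in libraries 18 to 23. Libraries 18 and 19 were low, and their intervals (74.3 to 86.6 and 38.5 to 46.5 CPM) met neither each other's nor those of the other 4. The highest CPM was 5.28 times the lowest (95% interval 4.74 to 5.88, adjusted p = 1.28e-287, chi-square test), a ratio that 4.49% of all genes tested reached. Without library 19 the ratio was 2.77, still past the threshold. In the authors' RPKM, which count reads outside exons in the depth, the ratio was 4.33.

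Zfp36l1, a paralog with the same kind of paired zinc fingers, was also lowest in library 19. The gene lies on chromosome 12 at 80107760 to 80113013 on the minus strand (ENSMUSG00000021127). Its CPM was 191, 132, 204, 186, 188 and 162 in libraries 18 to 23. Library 19 alone had an interval (125 to 139 CPM) that met none of the others, and library 18, low for Zfp36, was among the higher libraries here. The ratio was 1.54 (1.43 to 1.67, adjusted p = 1.75e-31), and it was 1.26 without library 19.

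Zfp36l2, the third paralog, ran the other way. The gene lies on chromosome 17 at 84183931 to 84187947 on the minus strand (ENSMUSG00000045817). Its CPM was 1634, 1781, 1299, 1283, 1363 and 1152 in libraries 18 to 23. The libraries lowest for Zfp36 were thus the highest for Zfp36l2, with intervals (1606 to 1661 and 1756 to 1807 CPM) above those of the other 4. The ratio was 1.55 (1.48 to 1.62, adjusted p = 6.98e-209).

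The make-up of the family differed between libraries accordingly. Zfp36l2 took 84.2%, 89.9%, 73.5%, 76.7%, 77.5% and 76.5% of the summed RPKM of the 3 paralogs in libraries 18 to 23. The share of Zfp36 was 4.21%, 2.18%, 12.9%, 10.1%, 9.87% and 10.8% in the same order. Zfp36l2 stood at 41.3 times the RPKM of Zfp36 in library 19 and at 5.71 times in library 20. In RPKM, Zfp36 stood below Zfp36l1 in all 6 libraries, at 0.276 of its RPKM in library 19 and 0.944 in library 20. In exon CPM, which is not scaled to length, Zfp36 stood above Zfp36l1 in library 20 (224 against 204) and below it in the others. The exon length of Zfp36 (3470 bases) equals the whole span of its gene. Its RPKM may thus be understated, and the shares and RPKM ratios given here depend on that length. Paralogs share sequence in their zinc fingers, and the handling of reads that match more than 1 of them is not given in the sources used here.

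**Figure D2:**
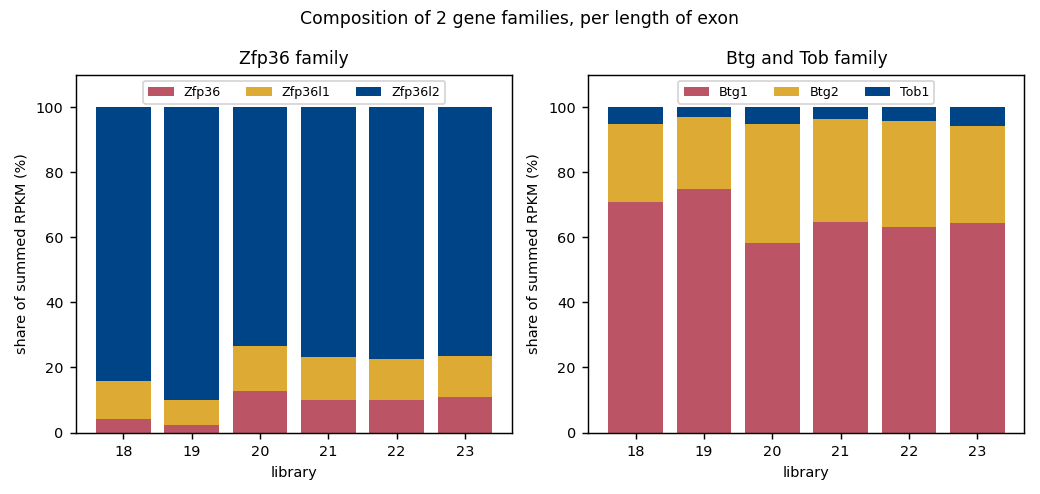
Share of the summed RPKM (%, y axis) held by each gene of the Zfp36 family (left) and of the Btg and Tob family (right) in each library (x axis). Zfp36l2 took 73.5% to 89.9% of its family and Btg1 took 58.2% to 74.9% of its own, both with the highest share in library 19.

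Btg1, a deadenylase adaptor and antiproliferative gene, was the steadiest of the 9. It lies on chromosome 10 at 96617001 to 96622813 on the plus strand (ENSMUSG00000036478), and its CPM was 988, 877, 930, 990, 927 and 886 in libraries 18 to 23. The ratio was 1.13 (1.05 to 1.21, adjusted p = 1.17e-12), and 98.2% of all genes tested had a ratio as large. Which libraries were highest and lowest depended on the scaling: 21 and 19 with TMM factors, 18 and 23 without them, and 18 and 20 in RPKM.

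Btg2, the paralog that is known as an early-response and p53 target gene, varied more and, like Zfp36, was lowest in libraries 18 and 19. It lies on chromosome 1 at 134075170 to 134079120 on the minus strand (ENSMUSG00000020423). Its CPM was 182, 141, 321, 264, 260 and 225 in libraries 18 to 23. Library 20 was the highest, with the intervals of 18 (173 to 191 CPM) and 19 (134 to 148 CPM) below those of the other 4. The ratio was 2.28 (2.12 to 2.44, adjusted p = 8.34e-142), reached by 20.3% of all genes tested. Btg1 stood at 3.4 times the RPKM of Btg2 in library 19 and at 1.59 times in library 20.

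Tob1, a related adaptor known as a brake on T cell activation, was low in a single library. It lies on chromosome 11 at 94211454 to 94215495 on the plus strand (ENSMUSG00000037573), with 904 exon reads in all. Its CPM was 33.7, 16.4, 37.3, 26.5, 28.6 and 35.8 in libraries 18 to 23. The interval of library 19 (14 to 19 CPM) overlapped only that of library 21 (16.6 to 40.2 CPM, 22 reads). The ratio was 2.28 (1.86 to 2.78, adjusted p = 1.87e-15). Without library 19 it was 1.4 and no longer past the threshold (adjusted p = 0.148, chi-square test). In library 18, low for Zfp36 and Btg2, Tob1 lay above its median.

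Zc3h12a, the Regnase-1 gene, was scarce in exon reads. It lies on chromosome 4 at 125118423 to 125127840 on the minus strand (ENSMUSG00000042677). Its exon CPM was 17.8, 14.7, 25.3, 10.9, 24.9 and 20.6 in libraries 18 to 23. The value of library 21 rests on 9 reads (interval 4.97 to 20.6 CPM), and it overlapped all other libraries except 20 and 22. The ratio was 2.33 (1.19 to 4.57, adjusted p = 5.32e-06), and 1.72 without library 21.

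Rc3h1 and Rc3h2, the Roquin-1 and Roquin-2 genes, were not low in libraries 18 and 19 together. Rc3h1 lies on chromosome 1 at 160906418 to 160974978 on the plus strand (ENSMUSG00000040423), and its CPM was 183, 210, 180, 162, 166 and 228 in libraries 18 to 23. It was highest in library 23 and next highest in library 19 (in RPKM library 19 was the highest), with a ratio of 1.41 (1.16 to 1.71, adjusted p = 3.3e-11). Rc3h2 lies on chromosome 2 at 37370069 to 37422903 on the minus strand (ENSMUSG00000075376), and its CPM was 128, 171, 140, 126, 138 and 143. Library 19 was the highest, and its interval (163 to 179 CPM) met none of the others. The ratio was 1.36 (1.12 to 1.66, adjusted p = 7.5e-13), and without library 19 it was 1.14 and no longer past the threshold (adjusted p = 0.258, chi-square test). Rc3h1 stood at 1.27 to 1.68 times the RPKM of Rc3h2, a narrower range than that of Btg1 over Btg2 or of Zfp36l2 over Zfp36.

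**Figure D3:**
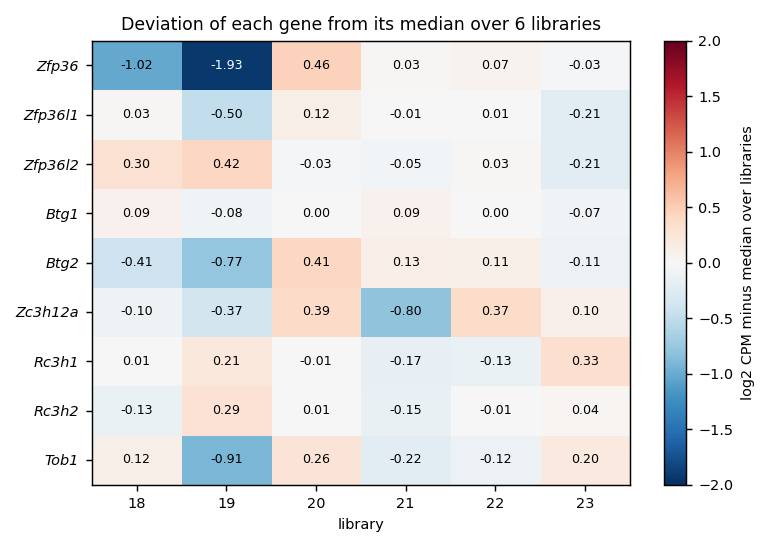
Difference of each gene's log2 CPM (prior count 2) from its own median over the 6 libraries (colour and number) for the 9 genes (rows) in libraries 18 to 23 (columns). Library 19 was lowest for Zfp36 (-1.93), Tob1 (-0.91), Btg2 (-0.77) and Zfp36l1 (-0.5), while Zfp36l2 (0.42) and Rc3h2 (0.29) were highest there.

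Library 19 held the lowest exon CPM of 5 of the 9 genes and the highest of 2, and library 20 held the highest of 5. Over all genes tested, library 19 was lowest for 14% and highest for 14.6%, and library 20 highest for 12.8%. The shallow libraries 21 and 23 took more of the extremes, lowest for 27.8% and 21.9% and highest for 25.4% and 22.1%. All genes tested include many with few reads and were not matched by level to the 9 genes or to the lists below, which limits these shares as a yardstick. The 5 genes lowest in library 19 were Zfp36, Zfp36l1, Btg1, Btg2 and Tob1. For Btg1 this held with TMM factors and DESeq2 size factors only, while for the other 4 it held under every scaling run and in RPKM. Library 20 held the highest RPKM of Zfp36 and Btg2 only.

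Likeness of profiles was measured as the root mean square difference between log2 CPM profiles, each centred on its median over the 6 libraries. Among the 9 genes the closest pair was Rc3h1 and Rc3h2 (0.14), followed by Zfp36l1 and Btg1 (0.19). Btg2 and Zfp36 lay 0.54 apart. Btg2 was the nearest of these genes to Zfp36, but Zfp36 was not near to Btg2 by this measure. Btg2 lay nearer to Zfp36l1 (0.25), Tob1 (0.31), Btg1 (0.39), Zc3h12a (0.45), Rc3h2 (0.50) and Rc3h1 (0.53), and only Zfp36l2 (0.60) was farther from it. The genes of the whole table nearest to Zfp36 were Klf4 (0.23), Ifrd1 (0.25) and Klf6 (0.25), and all 3 were lowest in library 19. Nearest to Btg2 were Spty2d1 (0.06), Nr4a3 (0.13) and Zbtb10 (0.13), all lowest in library 19. Nearest to Tob1 were Ets2 (0.08), Snhg1 (0.15) and Morf4l2 (0.16). Zfp36l1 was nearest to Snrpd2 (0.05), Slc25a3 (0.06) and Ptp4a1 (0.06). Zfp36l2 was nearest to Ikzf3 (0.04), Rnf170_1 (0.06) and Pfdn4 (0.06), which were all highest in library 19 and lowest in library 23. Btg1 was nearest to Fam107b (0.02), Tcea1 (0.02) and Srsf6 (0.03). Rc3h2 was nearest to Dock10 (0.03), Cysltr2 (0.05) and Wnk1 (0.05), and Rc3h1 to Prkaa1 (0.04), Snap23 (0.05) and BC005537 (0.05). Zc3h12a was nearest to Trmt112 (0.13), Kdm4d (0.15) and Herpud2 (0.17), all lowest in library 21. Neighbours were chosen by these same values, so a highest or lowest library shared with the member follows from the choice and is not a separate result. Profiles with small ranges lie close together whatever their shape, so a small distance says least for Btg1, Rc3h1 and Rc3h2.

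Reads on introns, which can come from unspliced RNA and from genomic DNA, give a second measure of 8 of the 9 genes. Zfp36 had 12 intron reads in all and was below the minimum of 200 reads. Its exon length in the table (3470 bases) equals the whole span of the gene, so its exon reads may include reads on its intron. Of the other 8 genes, 7 varied beyond counting error in intron reads, with Rc3h1 the exception (adjusted p = 0.0684, chi-square test, ratio 1.28), which passed the threshold with DESeq2 size factors (adjusted p = 0.0419). Of all 8607 genes tested on introns, 83.6% did so. The intron ratio reached 2 in Zc3h12a and Tob1, 2 of the 8 genes, and in 45.6% of all genes tested. The median intron ratio was 1.59 over the 8 genes and 1.9 over all genes tested. A gene without exon reads in a library was counted as having no intron reads there. That can raise the calls and ratios over all genes tested, but it did not touch the 8 genes, which had exon reads in every library.

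The Zc3h12a introns carried most of that gene's reads. Intron reads were 81.6%, 80.9%, 84.2%, 93%, 81.6% and 83.3% of its reads in libraries 18 to 23, against library medians of 40.5% to 50.1% over genes with at least 50 reads. Scaled to the library's intron reads, its introns held 83.1, 67.1, 139, 162, 133 and 118 CPM in libraries 18 to 23. Libraries 18 and 19 were the lowest, as for the exon reads of Zfp36 and Btg2, and their intervals (76.9 to 89.7 and 62.1 to 72.4) lay below those of the other 4. The ratio was 2.42 (adjusted p = 6.09e-61), and library 21, lowest in exon reads, was the highest in intron reads. Its intron interval (134 to 194 CPM, 119 reads) overlapped those of libraries 20, 22 and 23, and its exon value rests on 9 reads. Use of strand is not given in the sources used here, so reads from an overlapping transcript could not be told apart.

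Btg2 introns, like its exons, were lowest in library 19 and highest in library 20, with a smaller ratio. Their CPM was 120, 89.9, 144, 112, 127 and 125 in libraries 18 to 23, a ratio of 1.6 (adjusted p = 1.05e-19). The intron interval of library 18 (113 to 128 CPM) overlapped those of libraries 21, 22 and 23, unlike its exon interval. Introns took 38.5% of Btg2 reads in library 18 (95% Wilson interval 36.6% to 40.4%), 37.1% in library 19 (35.2% to 39.1%), and 30.4%, 27.2%, 28.8% and 32.7% in libraries 20 to 23. The libraries with the lowest Btg2 exon CPM had the highest intron shares, but fewer exon reads raise the share by arithmetic, so these are not separate results. The printed shares are not adjusted for the intron share of all gene reads, which ran from 45.5% (library 22) to 50.6% (library 20). The intron share of Btg2 varied beyond counting error (adjusted p = 1.84e-11, chi-square test), as it did for 6 of the 8 genes and for 69.9% of 7275 genes tested.

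Tob1 introns were lowest in library 19, at 2.54 CPM (25 reads), and highest in library 21, at 16.4 CPM (12 reads). The ratio was 6.45 (adjusted p = 3.46e-11), but 1.89 without library 19 (adjusted p = 0.211) and 4.58 without library 21. Zfp36l1 introns were also lowest in library 19, at 31 CPM, against 42.5 to 57.2 CPM elsewhere (ratio 1.85, adjusted p = 2.95e-11). The intron share of Zfp36l1 stayed between 17.4% and 21.4%, with no call in the test of the share (adjusted p = 0.124).

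Rc3h2 had its highest exon level and its highest intron level in different libraries. Introns held 103, 90, 65.2, 92.7, 78.9 and 84.7 CPM in libraries 18 to 23, highest in library 18, where its exon CPM was among the lowest. The intron share was 43.3% in library 18 (41% to 45.5%) and 32.8% in library 19 (31.1% to 34.6%), and the share differed between libraries (adjusted p = 2.87e-12). The introns of Zfp36l2 (ratio 1.58, adjusted p = 0.0056) and Btg1 (ratio 1.39, adjusted p = 0.00136) were no longer past the threshold without library 20 (adjusted p = 0.217 and 0.405).

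**Figure D4:**
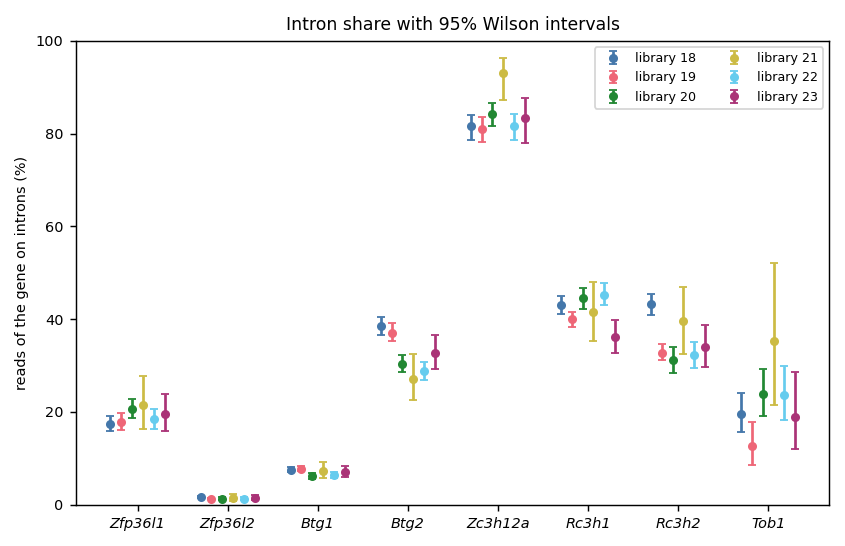
Share of a gene's reads that fell on introns (%, y axis) for 8 genes (x axis); points are libraries 18 to 23 and bars are 95% Wilson intervals. Zc3h12a lay between 80.9% and 93%, Zfp36l2 between 1.3% and 1.59%, and Btg2 between 27.2% and 38.5%.

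Other measured groups moved with the low values of Zfp36 and Btg2. Summed CPM of 18 immediate-early and handling genes was 3631 in library 18 and 1916 in library 19, against 5715 to 7388 in the other 4 libraries. All 16 of them that had enough reads were called, against 71.6% over all genes tested. Their median ratio was 3.5 (1.58 over all genes tested). Of the 16, 15 were lowest in library 19 (14% over all genes tested). The exception, Dusp2, was highest there, at 61.3, 114, 54, 62.8, 57 and 40.1 CPM in libraries 18 to 23. Fos, an AP-1 subunit, held 405, 103, 829, 807, 994 and 943 CPM in libraries 18 to 23. Klf6, also among the nearest profiles to Zfp36, held 503, 188, 864, 747, 909 and 942 CPM. The heat-inducible Hspa1b held 27.3, 4.24, 622, 214, 521 and 876 CPM and its near-identical copy Hspa1a 14.8, 0.565, 363, 122, 333 and 506 CPM, so reads of this pair may be split. The erythroid and B cell sums given above were lowest in the same libraries. The part of cell make-up, handling or depth in the results was not tested.

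The general decay machinery had smaller ranges than the median gene, with median ratios of 1.3 to 1.43 in its 4 lists. The median was 1.58 over all genes tested, of which 71.6% were called, and these were not matched to the lists by level. Of 15 tested genes of the CCR4-NOT and PAN deadenylases, 11 were called, with a median ratio of 1.32, and their sum ran from 1791 to 1935 CPM. The scaffold gene Cnot1 had a median of 507 CPM (ratio 1.28) and the catalytic subunit gene Cnot6l 345 CPM (ratio 1.23). Cnot11 (ratio 2.57) and Cnot9 (ratio 2.1) had the widest ranges, both set by library 21, the shallowest. Decapping and 5′ decay genes were called in 9 of 17, led by the helicase gene Ddx6 (median 686 CPM, ratio 1.19) and the exonuclease gene Xrn1 (260 CPM, ratio 1.25), with a median ratio of 1.3. Lsm4 (1.92) and Lsm6 (1.75) had the highest ratios of that list.

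Exosome and SKI genes were called in 9 of 15 (median ratio 1.43), with Exosc10 (median 173 CPM) and Skiv2l2 (139 CPM) the most abundant. Exosc4 (ratio 4.86) and Ttc37 (2.16) were both lowest in library 21, the shallowest. The Exosc4 value there, 3.62 CPM, equals the limit of 3 reads that a count of 0 allowed in that library, so its ratio is poorly fixed. Nonsense-mediated decay genes were called in 7 of 10 (median ratio 1.4), led by the kinase gene Smg1 (696 CPM) and Upf2 (169 CPM), with the highest ratios in Upf1 (1.56) and Smg8 (1.53, adjusted p = 0.518). Other AU-rich element binding genes were called in 8 of 12 (median ratio 1.32), against 71.6% and 1.58 over all genes tested. Pum2 led that list with 480 CPM and was not called (adjusted p = 0.0769), followed by Hnrnpab with 321 CPM. Pcbp1 (ratio 1.56) and Fxr1 (1.45) had its widest ranges.

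Among further relatives and partners of the 9 genes, 8 of 9 tested were called, against 71.6% over all genes tested. Their median ratio was 1.42 (1.58 over all genes tested). Without library 22, 5 of the 9 were called, against 66.2% over all genes tested. Nufip2, a Roquin cofactor, had a median of 263 CPM (ratio 1.2), and Mapkapk2, the kinase that restrains tristetraprolin, 140 CPM (ratio 1.22). The Tob1 paralog Tob2 held 100, 76.8, 117, 86.9, 110 and 90.2 CPM in libraries 18 to 23, lowest in library 19 like Tob1. Btg3 (ratio 2.25) and N4bp1 (1.87) had the highest ratios. Zfp36l3 and Btg4, relatives outside the 9, had 4 reads and 1 read in all.

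Of 20 transcripts reported as targets of ZFP36, Regnase-1 or Roquin proteins, 12 had enough reads and all 12 were called, against 71.6% over all genes tested. Their median ratio was 1.51, against 1.58 over all genes tested. Ifng held 56, 40.6, 152, 72.4, 130 and 52.7 CPM in libraries 18 to 23, a ratio of 3.75. Its lowest level was in library 19 and its highest in library 20, as for Zfp36 and Btg2. The rest of the profile differed, since Ifng was lower in library 23 than in library 18, unlike those genes. Ctla4 had a ratio of 2.12 and was lowest in library 19 at 10.6 CPM. Icos, a Roquin and Regnase-1 target in T cells, lay between 175 CPM (library 23) and 257 CPM (library 18). Ccnd2 was the most abundant of them, with a median of 1211 CPM and a ratio of 1.19. The summed level of the 20 genes, which mainly reflects Ccnd2, ran from 2057 to 2244 CPM.

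Genes of T cell quiescence were called in 16 of 17 (71.6% over all genes tested), with a median ratio of 1.45. Of the 17, 8 were lowest in library 19 and 7 in library 23 (14% and 21.9% over all genes tested). Highest in library 19 were 4 of the 17 (14.6% over all genes tested). Klf2, which keeps T cells resting and circulating, held 35.9, 8.38, 54.5, 66.4, 46.9 and 67.5 CPM in libraries 18 to 23, lowest in the same library as Zfp36, Btg2 and Tob1. Bach2 (ratio 2.38), Satb1 (median 860 CPM, ratio 1.46) and Ets1 (median 1426 CPM, ratio 1.31) were also lowest there. The 4 genes highest in library 19, named after their values were seen, were Foxo3, Foxp1, Slfn2 and Vsir, at 311, 313, 206 and 135 CPM there.

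**Figure D5:**
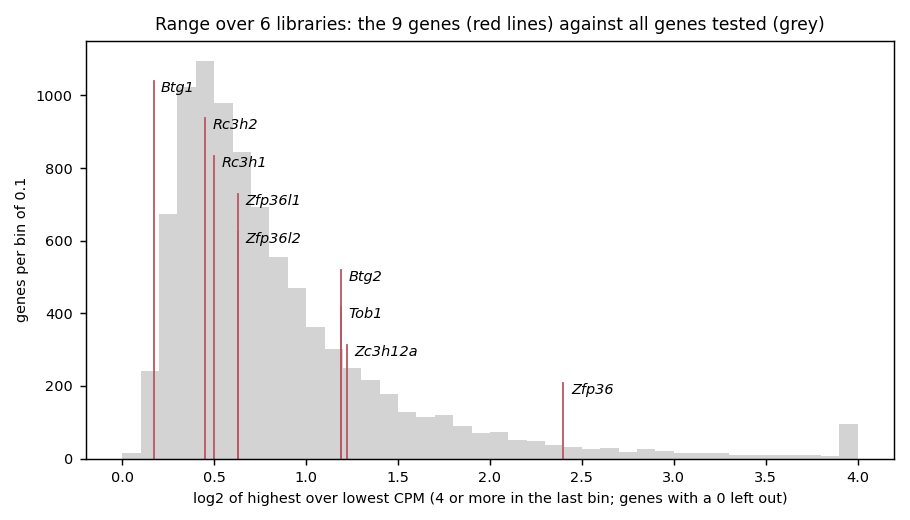
Number of genes (y axis) by log2 of the highest over the lowest CPM of 6 libraries (x axis) for 8984 tested genes in grey, with 58 genes at 0 in a library left out; red lines mark the 9 genes. Zfp36 (2.40) lies in the upper tail, Btg2, Tob1 and Zc3h12a (1.19 to 1.22) above the bulk, and Btg1 (0.17) at the lower end.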

How the data were processed

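RNA of sorted splenic iNKT cells was sequenced. Per the labels' protocols, extraction used NucleoSpin RNA XS Micro and library preparation QIAseq UPXome. The submitters' processing notes name GRCm38 and mm10; aligner, counting tool, annotation release, use of strand and of molecular identifiers: not given in the sources used here. Per the file headers, the deposited table gave exon read counts (not normalized), the fraction of each gene's reads on introns, RPKM values scaled by the authors, and exon length in bases (an other, unscored value). The depth behind the deposited RPKM was not exon reads alone: exon reads made up 40.9% to 49.1% of that depth. Another 11 columns of values per library were not used. Intron reads were recovered from the deposited fraction and exon count, for genes with at least 1 exon read. With 0 exon reads in a library the intron reads were set to 0 there. Over the whole table, 46537 pairs of gene and library had 0 exon reads and a deposited intron fraction of 1, so their intron reads were lost.

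Library names (a number and index sequences) occur in no label, so 0 of 6 libraries were matched, and the planned comparison of Gpx4 cKO with WT (edgeR's quasi-likelihood test, with DESeq2 and a replicate block as alternatives) was not run. Nothing says whether samples came from separate animals. CPM used TMM effective library sizes (edgeR 4.0.16, R 4.3.3; 9510 genes kept by filterByExpr for exons, 8296 for introns). Exon and intron reads were each tested by chi-square against effective sizes for genes with at least 200 reads, with Benjamini-Hochberg adjustment over all genes tested and a threshold of 0.05. All 9 members passed the minimum in exon reads. The intron share was tested by chi-square around a logistic model with 1 share per gene, a test chosen after the values were seen. Poisson intervals are exact, shares have Wilson intervals, and the interval of a ratio treats counting error on the log scale without allowing for the choice of the extreme libraries. The tests were also run on simulated counts, drawn with Poisson error at known library sizes and with changes put into some genes. Such counts hold no other variation between libraries, so they do not bear on how many genes are called in these data.

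Members and lists were chosen with earlier results of these data known. All members are named. Of each list, the rule named the 2 tested genes with the highest median CPM and the 2 with the highest ratio; of neighbours it named 3 per member, among genes of at least 20 CPM, with predicted genes left out. Gpx4, Tob2, Zfp36l3, Btg4, Dusp2, Foxo3, Foxp1, Slfn2, Vsir and the single markers of cell types were named after their values were seen. Symbols not matched were Rqcd1, the older name of Cnot9, and Itgam. Transcripts came from GENCODE M21 and promoters from RefSeq (GRCm38.p6).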

Additional observations from a re-analysis of the deposited data

How the results depend on the processing

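No paired analysis was possible because the library names carry neither genotype nor replicate number, and for the same reason the edgeR and DESeq2 tests of genotype were not run. The count of varying genes among the 9 was 9 in exon reads under both other scalings and both other read minimums, and 7 to 9 with a library left out. In intron reads it was 7 (8 under both other scalings), and 5 to 8 with a library left out, where leaving out library 18, 20 or 22 took Tob1 below the read minimum; for the intron share it was 6, and 4 to 6. The intron call of Rc3h1 was gained with total reads in place of TMM (adjusted p = 0.00388), DESeq2 size factors (0.0419), and without library 19, 20 or 23 (0.0422, 0.0379 and 0.0386). Among further relatives and partners the count was 8, and 5 to 8 with a library left out. The 5 came without library 22, where 66.2% of all genes tested were called, and the cause was not tested. No other list's count moved by over 1.5 times in these settings. Total reads shift library 21 by 0.12 on the log2 scale against TMM factors. The RPKM ratio lay outside the interval of the CPM ratio for 5 of the 9 genes (Zfp36, Zfp36l1, Zfp36l2, Btg1 and Btg2). Depth limits library 21 most, where Zc3h12a rests on 9 exon reads and Tob1 on 22.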
